A study of Homo sapiens with 6 samples.

Results

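Measurements of 10 FGF pathway genes are described in the goblet-like colorectal adenocarcinoma line LS174T: the secreted binding protein FGFBP1, the ligands FGF19, FGF9 and FGF2, the receptors FGFR1, FGFR2, FGFR3 and FGFR4, the receptor-like protein FGFRL1 and the co-receptor KLB. They are the 10 rows with these gene names among the 58735 named genes of the deposited count table. Poly(A) RNA was sequenced from 3 libraries whose genotype label is FXYD3 knockout and from 3 wild-type libraries of the same line; all 6 carry the same tissue (colon) and cell type labels. FXYD3 encodes a small membrane protein that regulates the sodium pump. The labels describe neither the edit nor the culture conditions. Whether the libraries of a genotype are separate cultures, separate clones or repeats of 1 culture is not given there, so each p-value reflects library-to-library spread that may be technical.

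Paracrine fibroblast growth factors are secreted proteins that bind heparan sulfate chains on cell surfaces and in the matrix and, together with them, activate receptor tyrosine kinases of the FGFR family. The activated receptor signals through the adaptor FRS2 and the docking protein GAB1 to the RAS-ERK cascade, whose output is dampened by Sprouty proteins and dual-specificity phosphatases. In the gut, FGF19 is made in the ileal epithelium when bile acids activate the nuclear receptor FXR, and as a hormone it acts on FGFR4 with the co-receptor KLB to lower bile acid synthesis in the liver.

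Named genes received 15417232 to 19453217 counts per library. Within a genotype, Pearson's r of log2 CPM across the tested genes was 0.989 to 0.992, and every pair differed by more than sampling noise. The transcript of FXYD3 was not lower under the knockout label. It had 5.62 ± 0.932 CPM in knockout-labelled and 3.88 ± 1.07 CPM in wild-type libraries (SD, n = 3 each, edgeR adjusted p = 0.0522). In 11 of 14 alternatives it was likewise not called, as with DESeq2 (adjusted p = 0.101). The same held for edgeR without knockout-labelled library 2 (0.2725) or wild-type library 1 (0.248). In the other 3 the edgeR adjusted p was 0.0472 with the replicate number as a block, 0.0479 with no filter and 0.00313 without wild-type library 2. Each direction given here therefore refers to the label of the library. Here CPM are counts divided by the TMM-scaled size of the library, used to compare libraries for 1 gene, and TPM are counts scaled by gene length as well, used to compare genes.

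Of the 10 genes, 8 had enough reads to be tested, and 7 of these passed an adjusted p of 0.05 by edgeR's quasi-likelihood test. FGFBP1, FGFR4, FGFR2 and FGFRL1 fell in the knockout-labelled libraries, and FGF19, FGF9 and FGFR3 rose. Over all 15351 genes tested, 24.3% were called, 12.0% higher and 12.4% lower. For the 7 called genes the CPM ranges of the groups did not overlap, which was the case for 37.2% of all genes tested. The median absolute log2 fold change over all genes was 0.17, and the 7 called genes ran in size from 0.23 for FGFR3 to 1.14 for FGF19.

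**Figure D1:**
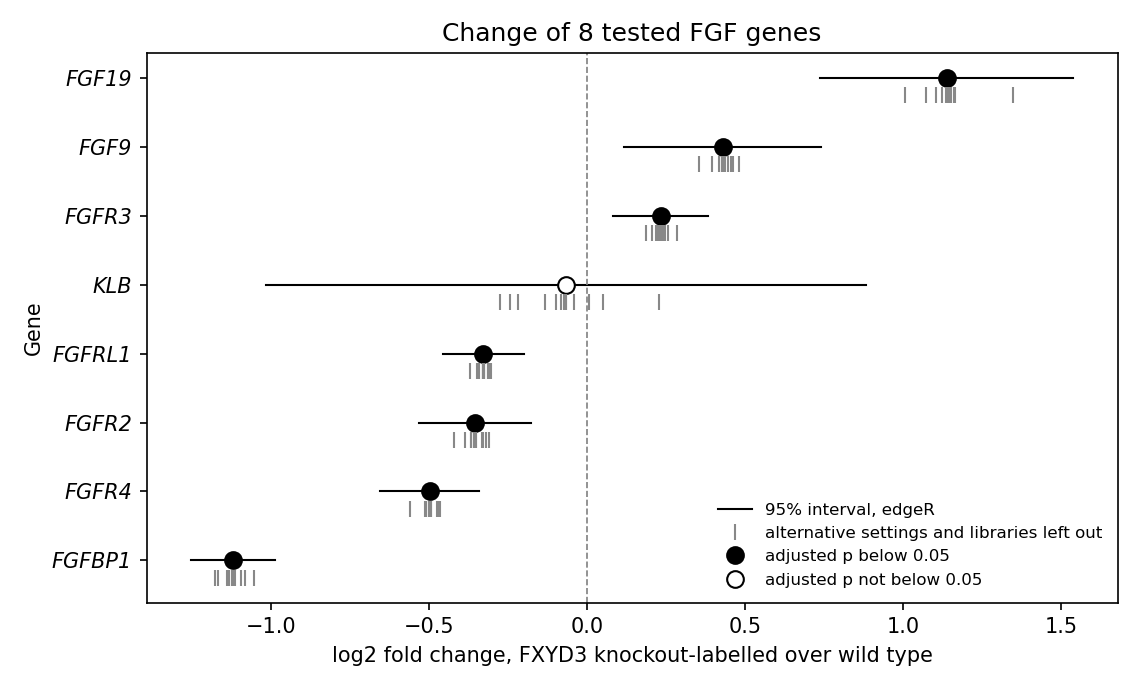
Log2 fold change (x axis, FXYD3 knockout-labelled over wild type) of the 8 tested FGF genes (y axis); circles are the edgeR values, filled where the adjusted p was below 0.05, lines are 95% intervals and grey ticks are the values under other settings and with 1 library left out. FGF19 (1.14) and FGFBP1 (-1.12) lie farthest from 0, on opposite sides, and the interval of KLB spans 0.

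FGFBP1 encodes a secreted chaperone that binds FGFs held on heparan sulfate and releases them from the matrix. It lies on chromosome 4 (GRCh38, 15935569 to 15938740, minus strand; ENSG00000137440). It had 140.0, 130.2 and 124.5 CPM in knockout-labelled libraries 1 to 3, against 280.2, 263.9 and 313.8 CPM in wild-type libraries 1 to 3. Every wild-type library thus stood far above every knockout-labelled one. This is a log2 fold change of -1.12 (SE 0.06, 95% interval -1.25 to -0.99; edgeR adjusted p = 4.97e-13), that is, 0.46 times the wild-type level. Per length it was the most abundant of the 10 genes in both groups, at 322 ± 16.2 TPM in knockout-labelled and 683 ± 41.5 TPM in wild-type libraries (SD, n = 3 each). Of the other binding proteins of this family, FGFBP3 was measured at 13.5 ± 0.908 CPM in knockout-labelled and 12.5 ± 1.61 CPM in wild-type libraries and was not called (log2 fold change 0.11), and FGFBP2 had 2 counts in all knockout-labelled and 4 in all wild-type libraries.

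The promoters shown are those of FGFBP1, which fell, of the receptor called higher (FGFR3) and of the receptor with the larger fall (FGFR4). Each is the 250 bases before the transcript start given by RefSeq on GRCh38.p14, on the gene's strand, and for FGFR4 the first of the 2 starts in that table. Capitals mark matches, on either strand, to any of 5 motifs, each searched separately and with overlaps allowed. The letters searched for AP-1 were TGANTCA. Those for the TATA box were TATAAA, and those for the GC box were GGGCGG. For TCF factors the letters were CTTTGA. For the core of the CRE element they were TGACG, which begin like those of AP-1.
FGFBP1 (chr4:15938741-15938990, minus strand): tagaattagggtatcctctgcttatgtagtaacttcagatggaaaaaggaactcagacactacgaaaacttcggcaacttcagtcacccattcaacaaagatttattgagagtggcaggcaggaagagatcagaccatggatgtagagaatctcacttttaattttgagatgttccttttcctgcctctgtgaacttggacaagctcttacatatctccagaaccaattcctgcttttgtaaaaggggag
FGFR3 (chr4:1793043-1793292, plus strand): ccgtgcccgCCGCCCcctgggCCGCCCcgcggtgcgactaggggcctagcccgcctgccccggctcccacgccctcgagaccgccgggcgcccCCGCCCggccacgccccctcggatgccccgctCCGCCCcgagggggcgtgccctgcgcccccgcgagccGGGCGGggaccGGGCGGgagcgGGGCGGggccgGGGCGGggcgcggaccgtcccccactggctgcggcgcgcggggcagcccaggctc
FGFR4 (chr5:177086665-177086914, plus strand): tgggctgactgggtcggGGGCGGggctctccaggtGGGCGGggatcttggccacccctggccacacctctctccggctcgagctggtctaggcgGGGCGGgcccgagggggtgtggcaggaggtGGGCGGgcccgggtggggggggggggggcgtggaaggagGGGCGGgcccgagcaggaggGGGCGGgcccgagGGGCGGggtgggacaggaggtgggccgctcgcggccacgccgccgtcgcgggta

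The FGFBP1 window held none of the 5 motifs and was 40.8% G and C, against 86.8% for FGFR3 and 79.6% for FGFR4 and a median of 58.0% over 35116 promoters. The FGFR3 window held 8 GC boxes and the FGFR4 window 7. The window before the second FGFR4 start, not shown, was 57.2% G and C and held none of the 5 motifs. FGFR3 was called higher and FGFR4 lower. The shares of all promoters with at least 1 match were 42.6% for the GC box, 6.57% for AP-1, 10.7% for TATA, 11.2% for TCF and 21.2% for the CRE core. A match is a stretch of letters and says nothing of what binds there.

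Of the 3 ligands among the 10 genes, FGF19 had the largest change. FGF19 (chromosome 11, 69698232 to 69704642, minus strand; ENSG00000162344) had 96, 118 and 110 counts in knockout-labelled libraries 1 to 3, against 45, 64 and 37 in wild-type libraries 1 to 3. These are 6.26 ± 0.263 CPM in knockout-labelled and 2.83 ± 0.678 CPM in wild-type libraries (SD, n = 3 each), with the lowest knockout-labelled library, 6.03 CPM, above the highest wild-type one, 3.59 CPM. On the log2 scale the rise was 1.14 (SE 0.19, interval 0.74 to 1.54; edgeR adjusted p = 6.31e-05), or 2.20-fold. The call held in all 14 alternatives, with log2 fold changes from 1.01 to 1.35.

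FGF9, a paracrine ligand, rose by less and less firmly. FGF9 (chromosome 13, 21671383 to 21704498, plus strand; ENSG00000102678) had 7.29, 7.97 and 7.67 CPM in knockout-labelled libraries 1 to 3, against 5.83, 5.11 and 6.14 CPM in wild-type libraries 1 to 3. The groups did not overlap, and the difference was 0.43 on the log2 scale (SE 0.15, interval 0.12 to 0.74; edgeR adjusted p = 0.0392). The call was lost with DESeq2 (adjusted p = 0.0844), with no filter on low counts (0.0730) and, with libraries left out singly, in every case other than wild-type library 3 (0.0565 to 0.116).

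FGF2, the prototype paracrine ligand, was at the limit of detection. FGF2 (chromosome 4, 122826708 to 122898236, plus strand; ENSG00000138685) was hit by 1, 0 and 1 reads in the knockout-labelled libraries, against 2, 1 and 1 in the wild-type ones. All 6 values lie under 3 counts, which correspond to 0.153 to 0.194 CPM in these libraries, so no fold change was formed. FGF2 overlaps NUDT6 on the opposite strand, which had 117 to 193 counts per library. The strand setting of the counting is not given in the sources used here, so reads in the shared stretch cannot be assigned to a strand.

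The receptors moved in different directions. FGFR4, the receptor through which FGF19 acts with KLB (chromosome 5, 177086886 to 177098144, plus strand; ENSG00000160867), had 34.7, 39.1 and 35.0 CPM in knockout-labelled libraries 1 to 3, against 51.9, 51.3 and 50.5 CPM in wild-type libraries 1 to 3. The groups lay well apart, and FGFR4 fell by 0.50 on the log2 scale (SE 0.08, interval -0.65 to -0.34; edgeR adjusted p = 1.26e-05).

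FGFR2 (chromosome 10, 121478334 to 121598458, minus strand; ENSG00000066468), a receptor whose epithelial and mesenchymal forms arise by alternative splicing, had 27.6, 24.9 and 26.9 CPM in knockout-labelled libraries 1 to 3, against 35.6, 35.1 and 30.6 CPM in wild-type libraries 1 to 3. Its log2 fold change was -0.35 (SE 0.09, interval -0.53 to -0.18; edgeR adjusted p = 0.00299), and wild-type library 3 lay nearest to the knockout-labelled ones. The counts cover the whole gene and do not separate its spliced forms. The RNA-binding proteins ESRP1, ESRP2, RBFOX2 and PTBP1, which control that splicing, were all tested. The number called was 0 in edgeR, as it was in voom and in DESeq2, and 0 had an unadjusted p below 0.05 in edgeR. PTBP1, the most abundant, had 698 ± 23.0 CPM in knockout-labelled and 700 ± 8.82 CPM in wild-type libraries.

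FGFR3 (chromosome 4, 1793293 to 1808872, plus strand; ENSG00000068078) had 52.2, 56.9 and 59.8 CPM in knockout-labelled libraries 1 to 3, against 46.3, 48.9 and 48.6 CPM in wild-type libraries 1 to 3. Its rise was small, at a log2 fold change of 0.23 (SE 0.07, interval 0.08 to 0.38; edgeR adjusted p = 0.0215). The groups did not overlap, but the call was lost without knockout-labelled library 2 (adjusted p = 0.0695), knockout-labelled library 3 (0.136) or wild-type library 1 (0.119). Without any 1 of these libraries, FGF19 was the only one of the 10 genes called higher, against 3 with all libraries, while the number called lower was 4 in every alternative tried.

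FGFR1 (chromosome 8, 38400215 to 38468834, minus strand; ENSG00000077782), the main FGF receptor of mesenchymal cells, had 0, 1 and 0 counts in the knockout-labelled libraries, against 3, 0 and 1 in the wild-type ones. No library exceeded 3 counts, and no fold change was formed. LETM2 overlaps it on the opposite strand with 23 to 49 counts per library.

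FGFRL1 encodes a receptor-like membrane protein that binds FGFs but lacks the tyrosine kinase domain. FGFRL1 (chromosome 4, 1009936 to 1026897, plus strand; ENSG00000127418) had 77.7, 81.4 and 79.3 CPM in knockout-labelled libraries 1 to 3, against 102.6, 94.4 and 102.5 CPM in wild-type libraries 1 to 3. The groups did not overlap, and FGFRL1 changed by -0.33 on the log2 scale (SE 0.06, interval -0.46 to -0.20; edgeR adjusted p = 2.25e-04). Per length it was above each of the receptors, at 63.8 ± 1.63 TPM in knockout-labelled and 78.2 ± 0.880 TPM in wild-type libraries (SD, n = 3 each).

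KLB, beta-Klotho, the co-receptor for the hormones FGF19 and FGF21, was barely above the filter. KLB (chromosome 4, 39406853 to 39451536, plus strand; ENSG00000134962) had 5, 15 and 14 counts in knockout-labelled libraries 1 to 3, against 13, 14 and 8 in wild-type libraries 1 to 3. The groups overlapped, and the log2 fold change was -0.07 (SE 0.46, edgeR adjusted p = 0.942). Its interval ran from -1.01 to 0.88, so a change within that range in either direction was not excluded. FGF21 itself, chosen after its values were seen, had 2 counts in all knockout-labelled and 23 in all wild-type libraries and was too low to test. KL, the co-receptor for FGF23, had 0 counts in every library.

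**Figure D2:**
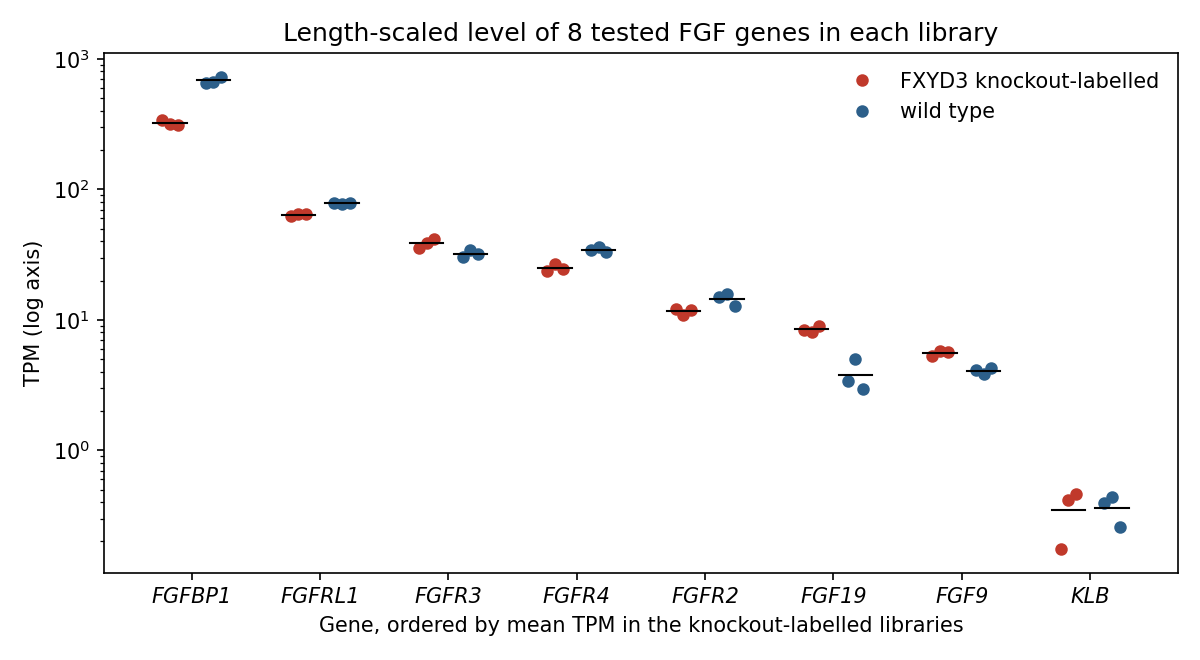
TPM (y axis, log scale) of the 8 tested FGF genes (x axis) in each library, red for FXYD3 knockout-labelled and blue for wild type, with a black line at each mean of 3. FGFBP1 stands highest in both groups, FGF19 is below FGFR2 in every library, and the points of KLB overlap between the groups.

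Ordered by mean TPM, the knockout-labelled libraries gave FGFBP1, FGFRL1, FGFR3 (38.7 ± 3.06), FGFR4 (25.0 ± 1.57), FGFR2 (11.6 ± 0.679), FGF19 (8.51 ± 0.467), FGF9 (5.61 ± 0.261), KLB (0.351 ± 0.154), FGF2 and FGFR1 (TPM, SD, n = 3). Only FGF2 and FGFR1, next to each other in that order, had overlapping ranges. In the wild-type libraries FGFR4 (34.5 ± 1.52) stood before FGFR3 (32.2 ± 1.92), and FGF9 (4.07 ± 0.232) before FGF19 (3.78 ± 1.06), but in both pairs the ranges overlapped, as they did for FGF2 and FGFR1. Within each wild-type library FGFR4 was above FGFR3, whereas FGF9 was above FGF19 in libraries 1 and 3 and below it in library 2.

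The make-up of the receptor transcripts within each library does not depend on library scaling. FGFR3 made up 49.9, 50.8 and 53.4% of the summed FGFR1 to FGFR4 TPM in knockout-labelled libraries 1 to 3, against 38.2, 39.8 and 40.9% in wild-type libraries 1 to 3. FGFR4 made up 33.2, 35.0 and 31.3% in the knockout-labelled libraries, against 43.0, 41.9 and 42.6% in the wild-type ones. FGFR3 was thus the leading receptor in every knockout-labelled library and FGFR4 in every wild-type library. The mean share of FGFR3 differed by 11.7 percentage points and that of FGFR4 by -9.31 (knockout-labelled minus wild type), each with an exact two-sided permutation p of 0.1, the smallest that 3 against 3 libraries allow. Shares of the same sum depend on each other, so these differences are not separate results. For FGFR2 the shares were 15.5 ± 1.34% in knockout-labelled and 17.8 ± 1.20% in wild-type libraries and overlapped (exact permutation p = 0.2, n = 3 each). The summed level also overlapped, at 75.3 ± 3.53 TPM in knockout-labelled and 81.2 ± 4.39 TPM in wild-type libraries.

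**Figure D3:**
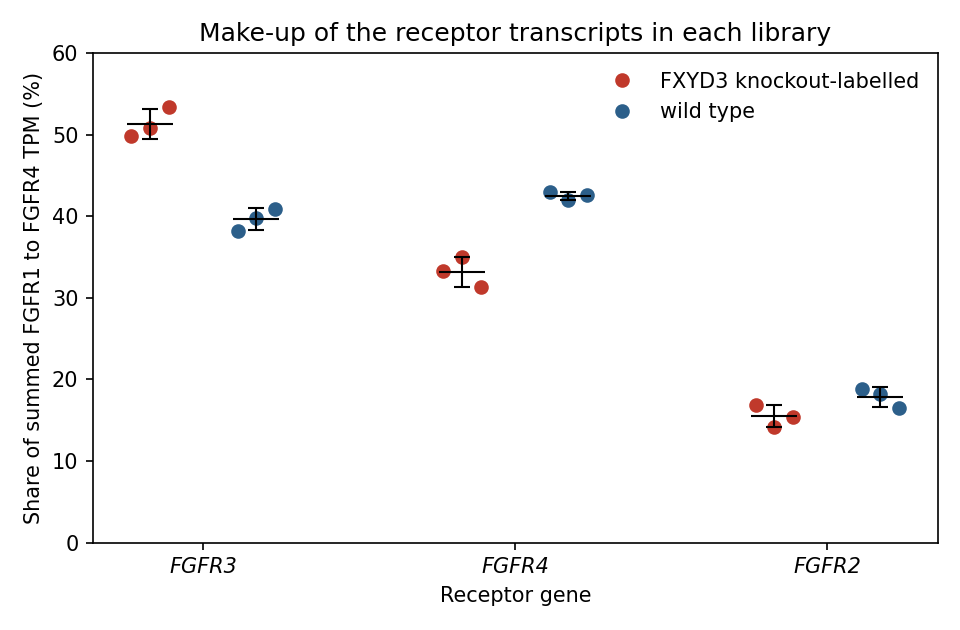
Share of each receptor in the summed FGFR1 to FGFR4 TPM (y axis, percent) for FGFR3, FGFR4 and FGFR2 (x axis), per library, with mean and SD bars over 3 libraries; red is FXYD3 knockout-labelled and blue wild type. FGFR3 is at 49.9 to 53.4% in knockout-labelled libraries, above all wild-type libraries (38.2 to 40.9%), and FGFR4 lies the other way round.

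Of the 14 tested protein-coding genes nearest to the 7 called members, 1 on each side, 3 were called higher, 1 lower and 10 not called, a share near the 24.3% called over all genes, with log2 fold changes from -0.20 to 0.17 among the uncalled. FGFRL1, which fell, lies between IDUA, 5.43 kb away and higher (0.67, SE 0.11), and SPON2, 140.0 kb away and lower (-1.46, SE 0.14). IDUA overlaps SLC26A1 on the opposite strand, whose log2 fold change was 0.64. FGF19 lies between LTO1, which was not called (0.10), and ANO1, 373.7 kb away and higher (0.33, SE 0.06). No neighbour of FGFBP1, FGFR2, FGFR3 or FGFR4 was called.

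The 3 protein-coding genes whose pattern over the 6 libraries was closest to that of FGFBP1, the called member with the smallest p, were TM4SF1, ANKRD37 and LFNG. The measure was the root mean square difference in log2 CPM centred on the wild-type mean, compared over 12480 genes, and it came to 0.05, 0.07 and 0.09. TM4SF1, a tetraspanin-like membrane protein, had 24.5 ± 2.15 CPM in knockout-labelled and 53.9 ± 3.48 CPM in wild-type libraries (SD, n = 3 each). ANKRD37 overlaps UFSP2 on the opposite strand.

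The surrounding pathway was described with 9 gene lists, the splicing factors included. Of their 80 tested genes, 14 were called higher and 16 lower. The comparison for each list, and for the marker lists, is the 24.3% called over all genes tested (12.0% higher and 12.4% lower). Of the 15 other secreted FGF ligands, 5 were tested, 1 was called higher and 1 lower. FGF20, which belongs to the same subfamily as FGF9, had 112, 147 and 146 counts in knockout-labelled libraries 1 to 3, against 17, 15 and 22 in wild-type libraries 1 to 3. Its log2 fold change of 2.88 (SE 0.22, interval 2.42 to 3.34; edgeR adjusted p = 7.56e-11) lay above the intervals of the 8 tested members. FGF18, a paracrine ligand, had 3.61, 3.07 and 3.03 CPM in knockout-labelled libraries, against 5.66, 5.61 and 5.27 CPM in wild-type libraries, and fell by 0.77 (SE 0.19, adjusted p = 0.00265). FGF17, FGF22 and FGF23 were not called, 4 ligands had 0 counts in all libraries, and none of the intracellular homologous factors FGF11 to FGF14 was high enough to test. The median log2 fold change of the 5 tested ligands was 0.58, against 0.00 over all genes.

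Among binding proteins and co-receptors outside the 10 genes, 4 of 11 were tested and 1 was called. ANOS1, anosmin-1, an extracellular protein that binds heparan sulfate and FGFR1, had 0.903, 0.919 and 2.02 CPM in knockout-labelled libraries 1 to 3, against 5.89, 7.18 and 6.20 CPM in wild-type libraries 1 to 3. It fell by 2.33 on the log2 scale (SE 0.25; edgeR adjusted p = 6.16e-08).

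Of 21 tested adaptors and kinases downstream of the receptors, 2 were higher, 1 lower and 18 not called, with a median log2 fold change of -0.02. The number higher was 1 without knockout-labelled library 1 or 3 or wild-type library 3, and with the replicate number as a block. GAB1, the docking protein, had 188, 232 and 238 counts in knockout-labelled libraries 1 to 3, against 53, 54 and 31 in wild-type libraries 1 to 3 (log2 fold change 2.24, SE 0.17; edgeR adjusted p = 5.11e-11). FRS2, the adaptor that links the receptors to this pathway, had a log2 fold change of 0.10 and was not called; it was chosen after its values were seen. MAPK3, which encodes the kinase ERK1, fell by 0.30 (SE 0.07, adjusted p = 0.0023). SOS1, a RAS exchange factor, was higher by 0.25 (SE 0.09, adjusted p = 0.032), a call lost without knockout-labelled library 1 (0.0502) or 3 (0.195) or wild-type library 3 (0.193), and with the block (0.0718).

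Feedback regulators and ERK target genes had 7 of 19 tested members higher and 2 lower, with a median log2 fold change of 0.13. The number higher was 4 with DESeq2 and 4, with 1 lower, without knockout-labelled library 1 or 3 or wild-type library 1. DUSP6, a cytoplasmic ERK phosphatase, had 86.9, 85.6 and 86.4 CPM in knockout-labelled libraries 1 to 3, against 46.1, 43.9 and 39.1 CPM in wild-type libraries 1 to 3 (95% interval of the log2 fold change 0.85 to 1.15). DUSP5, a nuclear ERK phosphatase, was higher by 1.10 (SE 0.10), and the receptor signalling inhibitor SPRY4 by 0.55 (SE 0.09). DUSP4, another nuclear phosphatase, went the other way, at 108.8 ± 0.934 CPM in knockout-labelled and 214 ± 14.6 CPM in wild-type libraries (SD, n = 3 each). PHLDA1, chosen after its values were seen, was the other gene called lower (log2 fold change -0.16, edgeR adjusted p = 0.034). The members of the Sprouty and related inhibitor families called higher beside SPRY4, chosen after their values were seen, were SPRY1 (0.34), SPRY2 (0.30), SPRED3 (1.26) and IL17RD (0.47, all log2), with adjusted p of 0.0372 for SPRY1 and 0.0411 for SPRED3. SPRED3 was low, with 68 counts in all knockout-labelled and 28 in all wild-type libraries. SPRED1 (0.14, adjusted p = 0.158) and SPRED2 (0.04, adjusted p = 0.719) were not called. The adjusted p of the 4 genes with the smallest p by edgeR ran from 4.67e-13 for DUSP4 to 4.30e-05 for SPRY4. The transcription factors ETV4 and ETV5, widely used as readouts of FGF signalling and chosen after their values were seen, were not called, at log2 fold changes of -0.13 and -0.19.

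Heparan sulfate, which paracrine FGFs need for receptor binding, was covered by core proteins and enzymes. Of 11 tested core protein genes, 3 were higher and 6 lower, with a median log2 fold change of -0.27, and 1 was higher without knockout-labelled library 2 or wild-type library 1, and with the block. COL18A1, a basement membrane collagen that carries heparan sulfate, had 51, 67 and 51 counts in knockout-labelled libraries 1 to 3, against 948, 939 and 851 in wild-type libraries 1 to 3 (log2 fold change -4.03, SE 0.11; edgeR adjusted p = 1.79e-20). It overlaps SLC19A1 on the opposite strand, whose log2 fold change was -0.87. The glypican gene GPC4 and the syndecan gene SDC2 fell, with log2 fold changes of -1.07 (SE 0.09) and -1.77 (SE 0.16), and another glypican gene, GPC5, had 132, 119 and 112 counts in knockout-labelled libraries, against 2, 3 and 3 in wild-type ones. GPC5 thus passed the filter on its knockout-labelled counts. The syndecan genes SDC1, SDC3 and SDC4, chosen after their values were seen, were also called lower, with log2 fold changes of -0.31, -0.27 and -0.61. The other core protein genes called higher were GPC1 (0.19, edgeR adjusted p = 0.0163) and HSPG2 (0.21, adjusted p = 0.0473). AGRN, at 580 CPM in knockout-labelled and 539 CPM in wild-type libraries, was not called (0.11).

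Of 11 tested enzymes that build or trim heparan sulfate, 1 was higher and 3 lower (median log2 fold change -0.04), against 0 lower without knockout-labelled library 2 and 1 lower without wild-type library 1 or 2. HPSE, heparanase, which cleaves the chains, was higher by 0.38 (SE 0.09; edgeR adjusted p = 0.00164). GLCE, NDST1 and SULF2 were lower by 0.21, 0.28 and 0.70, calls that were lost for GLCE without knockout-labelled library 2 (adjusted p = 0.0832) and with the replicate number as a block (0.0531), for NDST1 without knockout-labelled library 1 or 2 or wild-type library 1 or 2 (0.0506 to 0.122), and for SULF2 without knockout-labelled library 2 or wild-type library 1 or 2 (0.0571 to 0.0766). SULF2 overlaps the more abundant NCOA3 on the opposite strand.

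No tested gene of the bile acid axis was called higher beside FGF19. Of 12 genes of that list 5 were tested, 0 were higher by edgeR, DESeq2 or limma voom, or at an unadjusted edgeR p below 0.05, and 2 were lower. NR1H4, which encodes FXR, and the ileal bile acid transporter gene SLC10A2 had 0 counts in all 6 libraries. FABP6, an ileal bile acid binding protein induced by FXR, had 102, 137 and 125 counts in knockout-labelled libraries 1 to 3, against 224, 152 and 180 in wild-type libraries 1 to 3 (log2 fold change -0.63, SE 0.15; edgeR adjusted p = 0.00222). NR0B2, a nuclear receptor induced by FXR in liver and ileum, had 0, 5 and 1 counts in the knockout-labelled libraries, against 12, 17 and 15 in the wild-type ones (adjusted p = 0.00185). It thus passed the filter on its wild-type counts. With at least 20 counts in every library of a group it was not tested. The list then had 3 tested genes, 1 of them lower. NR0B2 overlaps NUDC on the opposite strand, with 11860 counts over the 6 libraries and a log2 fold change of -0.28.

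**Figure D4:**
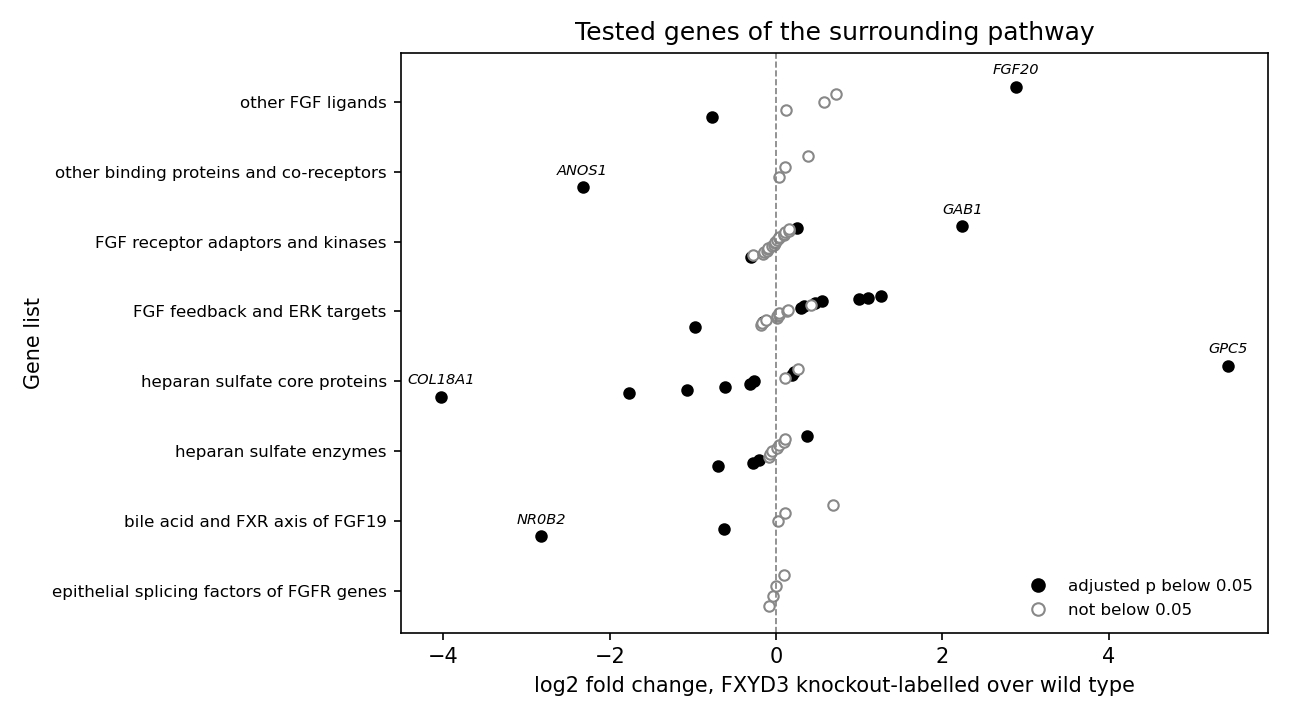
Log2 fold change (x axis, FXYD3 knockout-labelled over wild type) of each tested gene of the surrounding lists (y axis), black where the adjusted p was below 0.05 and open grey otherwise; genes beyond 2 in size are named. FGF20, GAB1 and GPC5 stand to the right, COL18A1, NR0B2 and ANOS1 to the left, and most adaptors and kinases lie near 0.

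Markers of the labelled cell type were present, and many of those of other cell types, with the exceptions given here, were at or near 0. EPCAM was at 691 ± 37.1 CPM in knockout-labelled and 748 ± 26.7 CPM in wild-type libraries, and all 10 epithelial and goblet markers were tested; 4 of them were lower (AGR2, MUC2, CDH1 and SPDEF) and 0 higher in edgeR, against 1 higher in DESeq2 and in voom and 1 at an unadjusted edgeR p below 0.05. The call of SPDEF was lost without knockout-labelled library 2 or 3 or wild-type library 2 or 3 (adjusted p 0.0684 to 0.0847). Of 10 fibroblast markers 2 were tested and 1 was higher; their summed level was 6.48 to 8.27 CPM in knockout-labelled and 1.39 to 2.11 CPM in wild-type libraries, mostly COL3A1 (293 counts in all knockout-labelled and 16 in all wild-type libraries), while PDGFRA and COL1A2 had 0 counts. Of the leukocyte markers CD14 was lower (20 counts in all knockout-labelled and 189 in all wild-type libraries) and PTPRC and CD3E were at 0. COL3A1 thus passed the filter on its knockout-labelled counts and CD14 on its wild-type counts. LYZ, the other leukocyte marker tested, was well above 0 in both groups, at 32.8 ± 0.504 CPM in knockout-labelled and 32.0 ± 1.43 CPM in wild-type libraries (SD, n = 3 each), and was not called (log2 fold change 0.04). No endothelial marker was high enough to test. The part of these markers in the changes of the FGF genes was not tested, and in bulk RNA a smaller number of cells of a type cannot be told apart from less RNA per cell.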

How the data were processed

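The authors deposited raw counts of reads per gene for 6 libraries, with the length of each gene in bases. HISAT2 2.0.5 and featureCounts 1.5.0-p3 are named in the submitters' processing notes, which list build mm10; the identifiers are human, and all 10 FGF genes have the start, end and exon length of GENCODE release 29 on GRCh38. The strand setting is not given in the sources used here. Of 58967 rows, 232 without a gene name (0.13 to 0.25% of counts) were left out.

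The whole table was fitted with edgeR 4.0.16 (R 4.3.3, quasi-likelihood test, two-sided, robust, TMM scaling, filterByExpr with a minimum count of 10), and p-values were adjusted by Benjamini-Hochberg over all genes tested. SE and 95% intervals come from the same fit. Alternatives were other scalings and filters, DESeq2 1.42.0, voom in limma 3.58.1, non-robust estimation, a block for the replicate number and fits without each library. Tables and plots used Python 3.11.15. Simulated counts (15329 genes tested) held 67 genes changed by 1.5-fold, 67 by 2-fold and 66 by 4-fold. On them the same fit made 175 calls, 10 of them false. The share recovered was 70.1% at a true change of 1.5-fold, 83.6% at 2-fold and 93.9% at 4-fold. Far fewer genes changed there than were called in the data, and smaller changes were not covered. These values are therefore not error rates of the calls given here.

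The 10 genes, the lists and the tests were chosen with earlier results of these data known. Named genes are the 10 members, up to 4 called genes of each list by smallest p (otherwise its most abundant tested gene), the nearest neighbours of called members, the 3 genes most like FGFBP1 (log2 CPM with a prior count of 2), FXYD3 and genes overlapping a member; all others were chosen after their values were seen. The values of 1 gene under this rule are not reported here. Limits of 3 counts cover counting error only. Promoters were found in the RefSeq table for 7 of the 10 genes.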

Additional observations from a re-analysis of the deposited data

How the results depend on the processing

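The calls of FGFBP1, FGF19, FGFR4, FGFR2 and FGFRL1 kept their direction and stayed below an adjusted p of 0.05 in all 14 alternatives. FGFR3 kept its direction with log2 fold changes of 0.19 to 0.28 on leaving out 1 library. FGF9 ranged from 0.35 to 0.48 on leaving out 1 library and was 0.42 with no filter and 0.43 with DESeq2, where it was no longer called. KLB, never called, ranged from -0.27 to 0.23 on leaving out 1 library, changing sign, and could not be tested with at least 20 counts in every library of a group. PTBP1, also never called, changed sign to 0.0193 with total counts and ranged from -0.0273 to 0.0212 on leaving out 1 library. On leaving out 1 library, 1 to 3 of the 10 genes and 9 to 16 genes of the pathway lists were called higher, against 14 with all libraries. The causes were not tested.

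No sign was seen that the replicate numbers pair the libraries. Same-numbered libraries had correlations of 0.02, -0.08 and -0.10 in their deviations from the group means, against -0.04 to 0.11 for different numbers. Not every library correlated best with its own number. With means of only 3 libraries, these values cannot exclude a pairing by number. With the number as a block, FGFR3 was at 0.23 (adjusted p = 0.0515) and FGF9 at 0.43 (0.0672), 1 of the 10 genes was called higher, and 9 pathway genes were. The shares of FGFR2, FGFR3 and FGFR4 kept their direction without length scaling and with each library left out. Depth limits KLB, FGF2 and FGFR1, each with at most 15 counts in a library. NDST1 was at -0.25 with total counts (adjusted p = 0.0528).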
